A study of Mus musculus with 46 samples.

Results

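The cytosolic ribosomal protein genes were taken from the count table of mouse hearts by gene name. A gene was a member if its name was Rpl or Rps followed by a number (or Rpsa, Rplp and a number), with the letters and digits that mark copies, if the name did not mark a pseudogene, and if its mean level was at least 5 CPM (the count scaled by the library total) in a library kit. Such a name was held by 89 of the 55359 genes of the table, of which 83 met the level: 45 of the large subunit, 31 of the small subunit, 5 paralogs (Rpl3l, Rpl7l1, Rpl22l1, Rps27l, Rps4l) and the Rps3a copies Rps3a2 and Rps3a3. In QuantSeq libraries 83 members met the level and in NEBNext libraries 59 did (33 large subunit, 21 small subunit, 5 paralogs), so 24 were members through QuantSeq only.

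The study deleted Lmna, the gene of the A-type lamins that line the nucleus, in heart muscle of adult mice and followed the transcripts of whole hearts. Every mouse carried a Myh6MCM transgene at Tg/0, a Cre recombinase made in cardiomyocytes that is active after tamoxifen, and every mouse received tamoxifen at 6 to 8 weeks of age (100 µL of a 4 mg/mL solution on each of 4 days), so controls carried Cre and drug too. The 26 NEBNext poly(A) libraries held Lmna F/F (both alleles floxed) and Lmna +/+ hearts at 1 week (4 and 5 libraries), 11 days (2 and 3) and 2 weeks (5 and 7) after tamoxifen. The 20 QuantSeq libraries, which count a tag near the 3' end of each transcript, held 2-week hearts: Lmna F/+ and F/F with cGas +/+ (6 and 6), and F/+ and F/F with cGas null/null (4 and 4, the F/+ ones all male); cGas is a sensor of DNA in the cytosol. Whole hearts contain cardiomyocytes, in which Cre acts, and other cells, in which Lmna is kept. The labels do not say that each library came from a mouse of its own, and the tests therefore measure how libraries vary. They give no replicate numbers either: a replicate number below only names a library, in the order of the sample records within its group.

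A cytosolic ribosome joins a small subunit, which reads the mRNA, to a large subunit, which links amino acids. Most ribosomal proteins are normally present as a single copy, so their mRNAs are usually held at similar levels. Many of these mRNAs begin with a C followed by a run of pyrimidines, a terminal oligopyrimidine tract through which growth signalling by mTOR sets how much they are translated. Heart and skeletal muscle also make paralogs: Rpl3l is a striated-muscle form of Rpl3, a protein that lies near the site where the peptide bond is formed, and takes the place of Rpl3 in adult muscle ribosomes.

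The first 90 coding bases of Rpl3 and Rpl3l are shown because reads of this pair can be told apart along their whole length. Capitals mark the 21 bases at which they differ in this stretch, read from the GENCODE vM21 transcripts.
Rpl3: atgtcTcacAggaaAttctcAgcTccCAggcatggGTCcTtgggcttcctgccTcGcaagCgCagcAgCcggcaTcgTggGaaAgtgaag
Rpl3l: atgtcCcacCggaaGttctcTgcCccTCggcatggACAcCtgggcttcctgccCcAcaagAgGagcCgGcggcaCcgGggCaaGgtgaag
Over their whole coding sequences (1209 bases in Rpl3 and 1221 in Rpl3l) 73.2% of aligned positions were identical, and they shared 0 windows of 50 bases. Identity was 68.2% for Rpl22 and Rpl22l1, 61.0% for Rps27 and Rps27l, and 54.0% for Rpl7 and Rpl7l1, each with 0 shared windows.

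Bases around the annotated start sites are shown for members that changed in the 2-week comparison. The 40 bases run from 20 before to 20 after the RefSeq start (GRCm38.p6), on the strand of the gene, and capitals mark a C followed by at least 5 pyrimidines that begins within 5 bases of the start; the deposited files use build mm39, and no coordinate was carried between builds.
Rpl13a (chr7:45128726-45128765, minus strand): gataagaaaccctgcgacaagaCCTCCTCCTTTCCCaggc
Rpl34, the upstream of its annotated starts (chr3:130730379-130730418, minus strand): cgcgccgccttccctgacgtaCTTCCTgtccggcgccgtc
Rpl31 (chr1:39367831-39367870, plus strand): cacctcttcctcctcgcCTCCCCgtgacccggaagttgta
Rpl27 (chr11:101442225-101442264, plus strand): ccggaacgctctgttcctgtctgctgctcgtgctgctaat
Rpl3l (chr17:24727806-24727845, plus strand): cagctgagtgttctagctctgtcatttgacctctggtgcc
Such a tract was found in 26 of the 60 member genes with a promoter in the table (43.3%), and in 11.9% of all 27025 genes searched the same way. It was absent from this window of Rpl27 and from both annotated starts of Rpl3l, which says only that these letters are not there, since the annotated start may not be the one used in heart.

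Levels were compared between genes per length, as TPM (counts scaled by transcript length and library) in NEBNext, and as CPM in QuantSeq, where each transcript gives a tag whatever its length. In NEBNext among the highest were Rplp1, of the stalk of the large subunit, at 2470 TPM and Rps15 at 1521, and the lowest were Rpl31 at 9.17, Rpl28 at 6.99 and Rpsa at 6.72 TPM. In QuantSeq the highest were Rplp1 at 1240 CPM, Rps29 at 1215 and Rps14 at 986, and the lowest Rps10 at 10.4, Rps3a2 at 7.98 and Rps3a3 at 7.87 CPM. Just inside the limit in NEBNext lay Rpl27 (5.85 CPM), Rpl36 (5.25) and Rpl28 (5.10), and just outside Rpl5 (4.64), Rpl11 (3.73) and Rpl9 (3.69). In QuantSeq the nearest genes outside were Rpl39l at 4.69, Rpl6l at 1.15 and Rpl24 at 0.242 CPM. With a limit of 1 CPM there were 72 members in NEBNext and 85 in QuantSeq, and with 20 CPM 51 and 79.

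The kits ranked the same genes very differently. Rps29 had a mean of 0.302 CPM in NEBNext and 1215 in QuantSeq, and Rpl23a 0.244 and 852. Processed pseudogenes of ribosomal proteins are common in mammalian genomes and carry near-copies of the coding sequence. In the GENCODE vM21 transcripts, 0.0% of the 50-base coding windows of Rps29 and of Rpl23a were absent from every other gene, whereas Rpl3l (388 CPM in NEBNext and 107 in QuantSeq) had 100% such unique windows. Over the 22 QuantSeq-only members with a coding transcript the median share of unique windows was 0.0%, with 15.2% the highest. Over the 58 members of both kits it was 16.4%, from 0.0 to 100%. Across the 80 members measured, the share of unique windows and the log2 ratio of NEBNext to QuantSeq level had a Spearman correlation of 0.793; the points share libraries, and genes are no replicates. The 50-base reads of NEBNext lie anywhere in the transcript, while QuantSeq tags lie near its end. The sources used here do not say how reads that match several genes were counted, and the part of this in these levels was not tested.

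**Figure D1:**
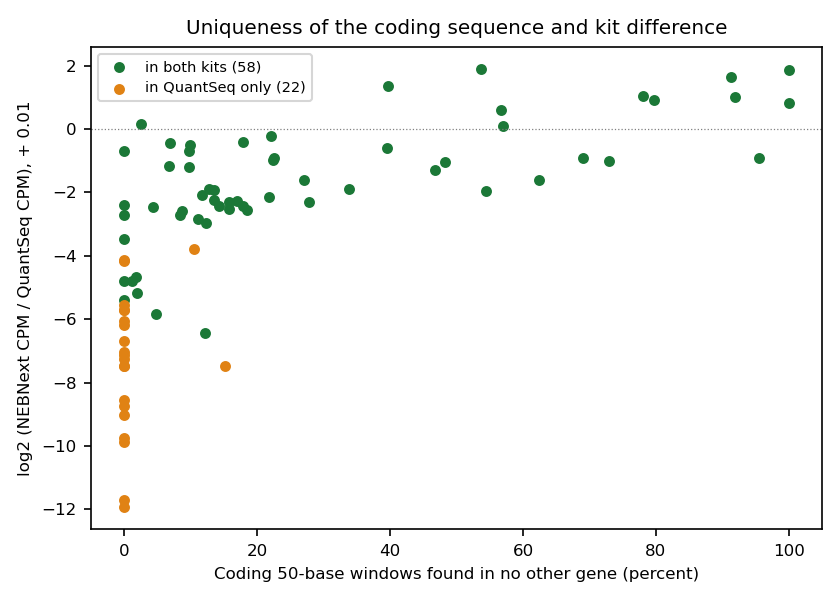
Each point is 1 of 80 members: the percent of its 50-base coding windows found in no other gene (x axis) and the log2 ratio of its mean NEBNext CPM to its mean QuantSeq CPM, with 0.01 added to each (y axis). Members below the limit in NEBNext (22 points) have at most 15.2% unique windows and mostly lie below the others.

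Total counts per library were 8477358 to 25856892 in NEBNext and 22099181 to 33993289 in QuantSeq. The deleted gene, Lmna, was at 27.0 to 36.9 normalized CPM (CPM of TMM-scaled library totals) in F/F and 45.0 to 67.7 in +/+ hearts at 1 week, and at 42.2 to 108 and 105 to 125 at 2 weeks, where F/F replicates 2 and 3 (both 108) lay within the +/+ range and F/F replicate 1 (42.2) was the lowest. At 11 days the libraries labelled F/F (58.3 to 58.4) lay within the range of those labelled +/+ (52.1 to 118), and in QuantSeq the ranges of Lmna in F/F (16.4 to 28.6) and F/+ hearts (19.2 to 25.97) overlapped, so the directions in these libraries and at 2 weeks rest on the labels. A library of F/+ cGas null hearts (replicate 1) stood apart: members made up 7.75% of its counts from nuclear genes, against 4.92 to 5.30% in the other 3 of its group. Counts of nuclear genes here leave out the mitochondrial genome and also the ribosomal RNA gene Rn18s. A library of F/F hearts at 2 weeks (replicate 1, pool KIUC033) lay between the arms or among +/+ hearts in Rpl3l, Rpl3 and Rpl27. The 2-week NEBNext libraries came from pools KIUC033 (2 F/F, 5 +/+) and KIUC035 (3 F/F, 2 +/+), and those of 1 week and of 11 days from 1 pool per time, which means that time cannot be told apart from pool.

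Summed over all members, ribosomal protein mRNA was at 1 week 1.20 ± 0.176% of nuclear gene counts in F/F (SD, n = 4) and 1.23 ± 0.180% in +/+ hearts (n = 5), and at 11 days 1.78 ± 0.0856% (n = 2) and 1.62 ± 0.0815% (n = 3). At 2 weeks it was 1.31 ± 0.183% (n = 5) and 1.02 ± 0.0741% (n = 7): 4 F/F libraries, at 1.26 to 1.45%, lay above the highest +/+ library at 1.11%, and replicate 1 at 1.01% lay among the +/+ libraries. In QuantSeq the share was 7.03 ± 0.830% in F/F and 6.30 ± 0.340% in F/+ with cGas (n = 6 each), and 6.20 ± 1.03% and 5.78 ± 1.32% without cGas (n = 4 each), with overlapping ranges. The ratio of large to small subunit counts was 1.13 ± 0.0644 in F/F and 1.16 ± 0.0671 in +/+ hearts at 2 weeks, 1.09 ± 0.0443 and 1.08 ± 0.0244 at 1 week, and 1.11 to 1.14 as means of the QuantSeq groups. At 11 days it was below 1 in every library, at 0.924 to 0.926 in the 2 F/F and 0.848 to 0.876 in the 3 +/+ libraries. These did not overlap, but groups this small can separate without a difference: the smallest exact permutation p for 2 against 3 libraries is 0.1. No test was planned for these sums, and in whole hearts more cells of a type and more RNA per cell cannot be told apart.

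**Figure D2:**
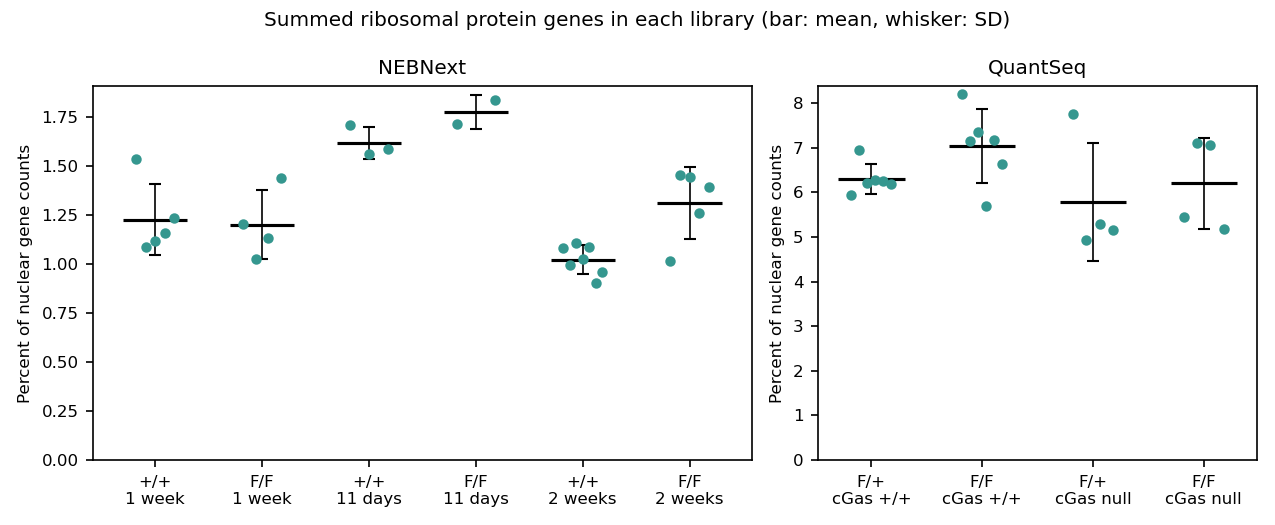
Each point is a library: summed counts of the members as a percent of counts of nuclear genes without Rn18s (y axis), by group (x axis). Bars are means and whiskers are SD. In F/F hearts at 2 weeks 4 of 5 libraries lie above all 7 +/+ libraries, and the highest F/+ cGas null library, at 7.75%, stands apart from its group.

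At 1 week and at 11 days no member passed the test. At 1 week 0 of 59 members passed an adjusted p of 0.05 with edgeR's quasi-likelihood test, where 0.0256% of 15627 genes did; 5 members had an unadjusted p under 0.05 (8.47%, beside 9.85% of all genes), and DESeq2 also called 0. The members' median log2 fold change, F/F against +/+, was -0.06, beside 0.00 for all genes. The smallest p were those of Rpl28 (0.55 ± 0.23, log2 ± SE) and Rpl26 (0.69 ± 0.32) with higher values in F/F, and of Rpl13 (-0.47 ± 0.17) and Rpl4 (-0.23 ± 0.11) with lower values. At 11 days 0 of 59 members passed, where 0% of all genes did; 4 had an unadjusted p under 0.05 (6.78%, beside 8.33% of all genes) and DESeq2 called 0. The median was 0.20 beside -0.07 for all genes, with Rpl18 (0.84 ± 0.31) and Rpl35a (0.82 ± 0.33) at one end and Rps26 (-0.53 ± 0.29) and Rpsa (-0.34 ± 0.23) at the other. Without replicate 1 of the +/+ hearts at 11 days, which leaves 2 against 2 libraries, 4 members passed as higher, with 114 genes higher and 121 lower over all 15627 genes.

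At 2 weeks the muscle paralog Rpl3l fell and a few members rose. Rpl3l was the only member of 59 that fell (13.0% of all genes fell), and 6 members rose (16.2% of all genes rose), among them Rpl3, Rpl34, Rpl27, Rpl31 and Rpl13a of the large subunit. Both were smaller shares than over all genes. An unadjusted edgeR p under 0.05 was found for 10 members (16.9%, beside 39.8% of all genes). By subunit, 5 of 33 large and 1 of 21 small subunit members rose, and 26 and 19 of them had a positive log2 fold change. The median over the members was 0.19 (0.17 in the large and 0.23 in the small subunit) beside 0.04 over all genes. Of 14 members with at least 50% unique windows 0 rose and 1, Rpl3l, fell (median 0.09), of 25 with 10 to under 50% 2 rose (median 0.23), and of 19 with under 10% 4 rose (median 0.21).

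The 6 rises rest on few libraries, and their number moved with 1 of the scalings tried. DESeq2, a fit without genes of the mitochondrial genome and a scaling without the members each called 6 members higher. Scaling by total counts without TMM factors, which moved the median over all genes from 0.04 to 0.29 (and to 0.15 at 1 week, and to 0.15 and 0.16 between F/F and F/+ QuantSeq hearts with and without cGas), called 28 members higher, with 4373 genes higher and 822 lower over all genes in place of 2537 and 2025. A fit of the 2-week libraries alone called 12 members higher. Leaving out replicate 7 of the +/+ hearts called 0, replicate 6 of the +/+ hearts 2, and replicates 2 and 3 of the F/F hearts 1 and 3, whereas leaving out F/F replicate 1 called 9. Within pool KIUC033 0 members rose, with 558 genes higher over all genes, and within KIUC035 4 did, with 1942 genes higher.

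Rpl3l, the heart-biased form of Rpl3, stood at 271, 137, 108, 163 and 181 normalized CPM in the 5 F/F hearts of 2 weeks. In the 7 +/+ hearts it ran from 279 to 454 with a median of 346. All F/F libraries lay below all +/+ libraries, and F/F replicate 1, at 271, came within a few CPM of the lowest +/+ heart. The log2 fold change was -1.02 ± 0.18 (SE) with an adjusted p of 0.000218 in edgeR. Leaving out each of the 12 libraries in turn gave values from -1.43 to -0.89, all past the threshold, and DESeq2 gave -1.03. Within pool KIUC035 the change was -1.47 (adjusted p 0.000262 in edgeR), and within KIUC033, with 2 F/F libraries, it was -0.67 and did not pass (adjusted p 0.0992 in edgeR). At 1 week Rpl3l was at 470, 416, 553 and 482 normalized CPM in F/F hearts and at 391, 539, 545, 536 and 546 in +/+ hearts, which overlap (log2 fold change -0.09 ± 0.20). At 11 days it was at 541 and 553 in F/F and at 684, 489 and 479 in +/+ hearts (-0.01 ± 0.27).

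**Figure D3:**
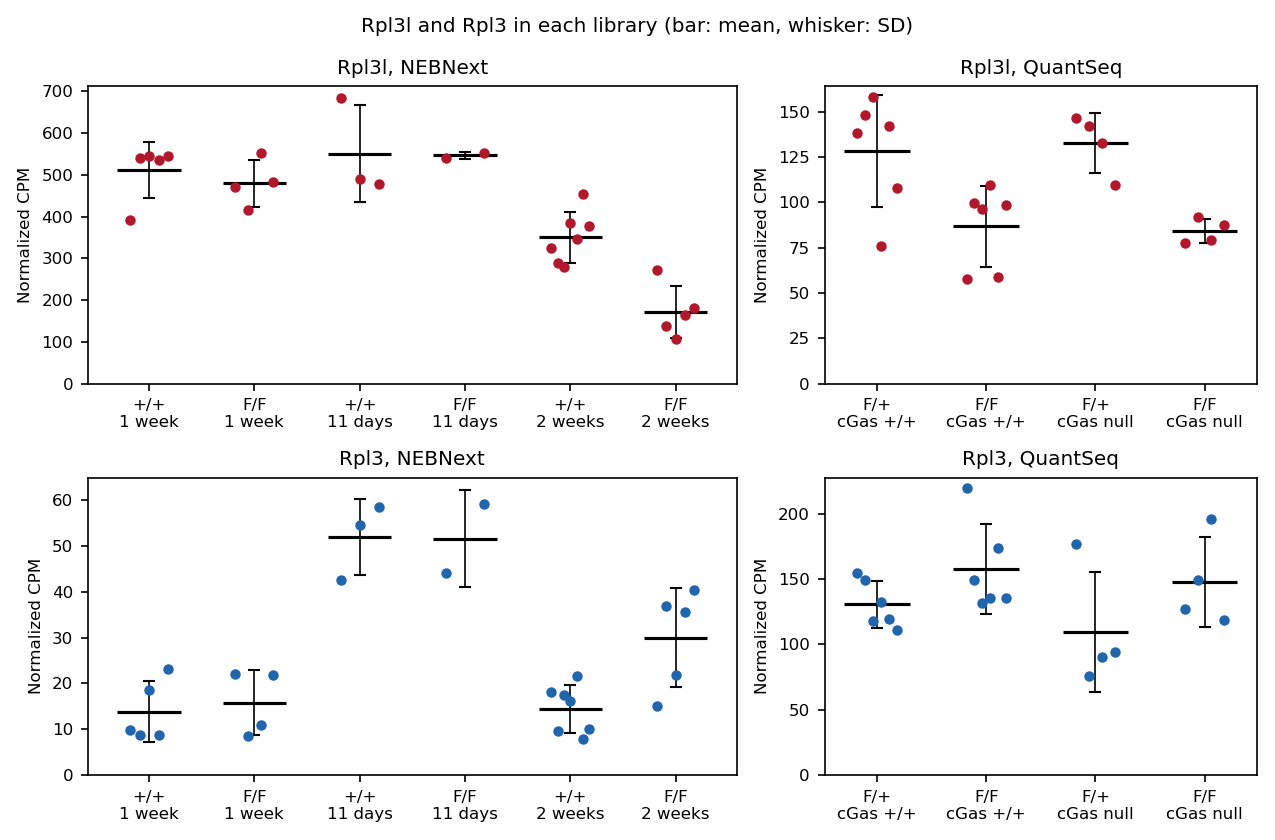
Normalized CPM (y axis, from 0) of Rpl3l (upper row) and Rpl3 (lower row) in each library by group, NEBNext on the left and QuantSeq on the right, with mean and SD. Rpl3l of the 5 F/F hearts at 2 weeks (108 to 271) lies below all 7 +/+ hearts (279 to 454), and Rpl3 overlaps between the arms at every time and in QuantSeq.

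Markers of cardiomyocytes moved with Rpl3l. Of the 16 cardiomyocyte genes in the list (among them Myh6, Tnnt2 and Atp2a2) 13 fell at 2 weeks and 0 rose, with a median log2 fold change of -0.64 and a range of -1.03 to -0.17. Their summed level was 64740 to 110000 normalized CPM in F/F and 137700 to 163600 in +/+ hearts, so the groups did not overlap. Rpl3l per 1000 CPM of these markers was 1.85 ± 0.397 in F/F (SD, n = 5) and 2.33 ± 0.364 in +/+ hearts (n = 7), with ranges of 1.39 to 2.47 and 1.91 to 2.90 that overlap, a value chosen after the data were seen. In the other direction 19 of 20 macrophage markers, 11 of 13 fibroblast markers and 15 of 15 proliferation genes rose, and summed macrophage markers ran from 1153 to 4964 normalized CPM in F/F and from 637 to 965 in +/+ hearts. Not all other cell types rose: of 10 endothelial markers 0 rose and 3 fell (median -0.34). Of 8 smooth muscle and pericyte markers 1 rose and 1 fell. Rpl3l is also made in skeletal muscle: of the 7 genes of that list 5 were measured, 0 passed at 2 weeks (0 with an unadjusted p under 0.05), and their sums of 166 to 704 in F/F and 70.9 to 775 normalized CPM in +/+ hearts overlapped. The part of a shift in cell types in the change of Rpl3l, or of the members that rose, was not tested.

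Rpl3, the form made in most cells, was at 15.1, 36.8, 21.9, 35.5 and 40.3 normalized CPM in F/F hearts of 2 weeks. In +/+ hearts it ran from 7.94 to 21.7 with a median of 16.1. All F/F hearts but replicate 1 (15.1) lay above all +/+ hearts, the closest being replicate 3 at 21.9. The log2 fold change was 1.13 ± 0.34 with an adjusted p of 0.0136 in edgeR, and it was no longer past the threshold without F/F replicate 2 or without +/+ replicate 6 or 7 (0.93 to 1.14). Only 4.3% of the 50-base coding windows of Rpl3 are unique to it, and the part of shared reads in its NEBNext level was not tested.

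Rpl34 of the large subunit ran from 82.9 to 118 in F/F and from 38.5 to 98.3 normalized CPM in +/+ hearts. A single +/+ heart, replicate 3 at 98.3, lay within the F/F range, and the others were at 51.1 or below (log2 fold change 1.07 ± 0.34, edgeR adjusted p 0.0188). Rpl27 was at 3.20, 8.96, 10.1, 8.41 and 8.16 in F/F and between 3.10 and 5.17 in +/+ hearts, so that replicate 1 of F/F alone lay among the +/+ hearts (0.80 ± 0.22, edgeR adjusted p 0.00749). Rpl31 ran from 5.22 to 8.15 and from 3.67 to 5.62 (0.67 ± 0.23), and Rpl13a from 15.7 to 37.2 and from 15.3 to 20.3 (0.58 ± 0.17), and both overlapped through F/F replicate 1. The share of unique coding windows was 0.0% in Rpl27, 2.5% in Rpl13a, 12.1% in Rpl31 and 27.8% in Rpl34. Rpl27 and Rpl31 lay near the limit in NEBNext, at means of 5.85 and 6.36 CPM. The part of shared reads in these levels was not tested.

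The F/F effect at 2 weeks was set against that at 1 week in the same fit. Rpl3l was the 1 member whose effect was lower at 2 weeks (5.88% of all genes were), by -0.93 ± 0.27 on the log2 scale, with an edgeR adjusted p of 0.0252. The effect was higher at 2 weeks in 3 members (6.52% of all genes), among them Rps26 (0.89 ± 0.29) and Rpl14 (0.55 ± 0.18). Rps26 had 145 to 281 normalized CPM in F/F and 211 to 278 in +/+ hearts at 1 week, and 92.2 to 150 and 70.9 to 123 at 2 weeks. Rpl14 had 87.1 to 129 and 99.9 to 151 at 1 week, and 73.7 to 92.3 and 60.6 to 83.1 at 2 weeks. Their groups overlapped at each time, and neither gene passed the test at 1 week or at 2 weeks alone. DESeq2 called 6 members higher here, and leaving out single libraries gave 0 to 11 higher: 0 without replicate 1 or 3 of the F/F or replicate 5 of the +/+ hearts of 1 week, and 11 without F/F replicate 4 of 1 week. Rpl3l did not pass without replicate 1 or 3 of the F/F hearts of 1 week, without F/F replicate 2 of 2 weeks, or without +/+ replicate 6 or 7 of 2 weeks.

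**Figure D4:**
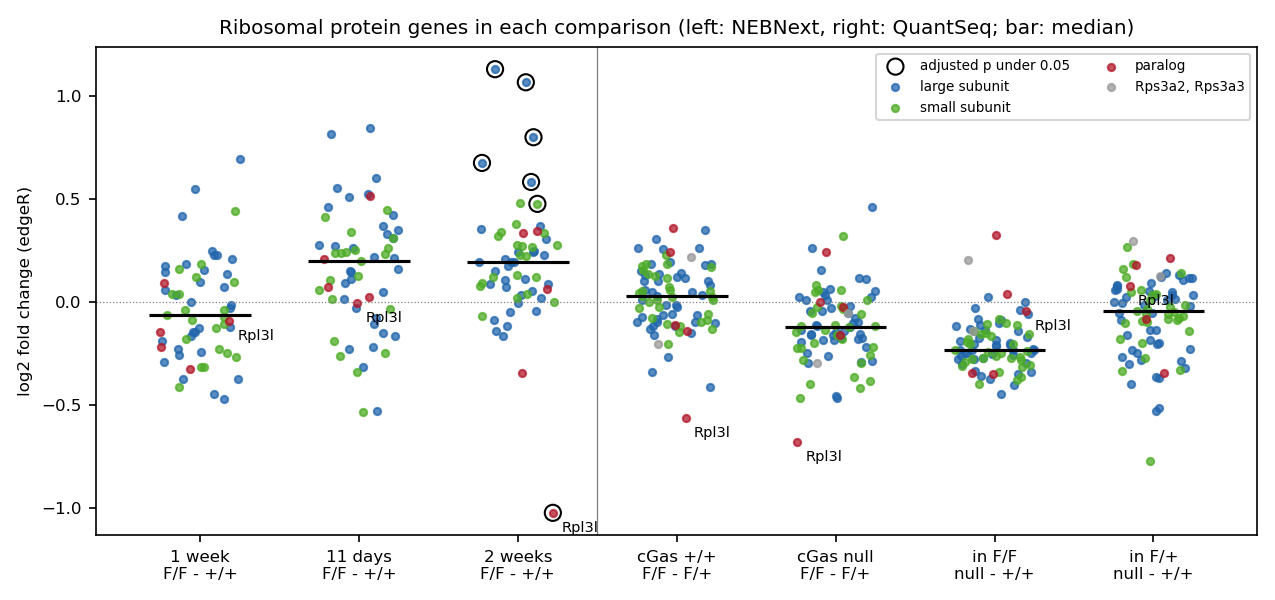
The log2 fold change (y axis) of each member in 7 comparisons (x axis), coloured by subunit or paralog, with circles around members at an adjusted p under 0.05 in edgeR and a bar at the members' median. In these comparisons circled points occur at 2 weeks in NEBNext only, where Rpl3l lies at -1.02 and 6 members lie above 0, up to 1.13.

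In QuantSeq hearts with cGas no member passed. Of 83 members 0 were called between F/F and F/+ (4.63% of 14812 genes were), 3 had an unadjusted p under 0.05 (3.61%, beside 18.9% of all genes), and DESeq2 called 1, Rpl3l. The median was 0.03 beside -0.01 over all genes. Over all genes 554 were higher and 132 lower, and scaling by total counts gave 551 and 19. The 3 members with an unadjusted p under 0.05 were Rpl3l, Rpl22l1 (0.36 ± 0.15) and Rpl13a (0.35 ± 0.15); the next lower member, Rpl6, was at -0.27 ± 0.20. Rpl3l was at 57.7, 99.5, 96.2, 109, 59.0 and 98.7 normalized CPM in F/F and ran from 75.9 to 158 with a median of 140 in F/+ hearts. The groups overlapped through replicates 4 (75.9) and 6 (108) of F/+. The log2 fold change was -0.56 ± 0.18 with an adjusted p of 0.0800 in edgeR; it passed with DESeq2 (0.0361), without the filter on low counts (0.0282, edgeR), and without replicate 4 of either arm (0.0210 and 0.0329, edgeR). Rpl3 was at 131 to 220 in F/F and at 111 to 155 in F/+ hearts (0.26 ± 0.19). Beside this, 17 of 20 macrophage markers and 9 of 15 proliferation genes rose, and 0 of 16 cardiomyocyte genes passed, at a median of -0.41 with all 16 below 0. These lists' part in the value of Rpl3l was not tested.

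In QuantSeq hearts without cGas 0 of 83 members were called either (0.527% of all genes were); 1 had an unadjusted p under 0.05 (1.2%, beside 10.3% of all genes), Rpl3l, and DESeq2 called 0. Rpl3l was at 77.5, 91.7, 79.5 and 87.4 normalized CPM in F/F and at 146, 142, 133 and 110 in F/+ hearts. All F/F libraries lay below all F/+ libraries, yet the change of -0.68 ± 0.24 did not pass over all genes (edgeR adjusted p 0.238). Rpl3 (0.46 ± 0.25) and Rpl7l1 (0.24 ± 0.21) had the smallest p among members with higher values, and Rps13 (-0.47 ± 0.24) the smallest after Rpl3l among those with lower values. The members' median was -0.12, beside -0.02 over all genes. It turned to 0.21 without F/+ replicate 1, the library with 7.75% of its nuclear gene counts in members. It turned to 0.03 without F/F replicate 4. Scaled by total counts it was 0.05, still below the median over all genes, which moved to 0.16. Rpl3l was at -0.63 without F/+ replicate 1. The F/+ libraries here are all male, so this comparison leans on the sex term of the fit. The members' median was -0.05 without that term and -0.35 in a fit of only the groups compared.

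The F/F effect without cGas was compared with that with cGas, which also leans on the sex term. Of 83 members 0 passed, and 0% of all genes did; 1 had an unadjusted p under 0.05 (1.2%, beside 1.45% of all genes) and DESeq2 called 0. Rpl3l differed by -0.12 ± 0.30. The smallest p were those of Rpl6 (0.53 ± 0.34) and Rpl7l1 (0.38 ± 0.28) above 0 and of Rpl22l1 (-0.52 ± 0.25) and Rps7 (-0.55 ± 0.31) below.

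Between cGas null and cGas +/+ hearts no member passed the test. In F/F hearts 0 of 83 passed, with 0% of all genes passing, 6 had an unadjusted p under 0.05 (7.23%, beside 5.74% of all genes) and DESeq2 called 0. Still, 78 of 83 members had lower values in cGas null than in cGas +/+ hearts of F/F genotype, all 31 of the small subunit among them, with a median of -0.23 beside 0.00 over all genes. Leaving out single libraries moved that median between -0.32 and -0.10. Since the members of a library share its depth and make-up, they are not independent. In the same comparison 19 of 20 macrophage markers were below 0 (median -0.51; summed 553 to 1170 normalized CPM without and 838 to 2040 with cGas), while all 10 endothelial and all 8 smooth muscle and pericyte markers were above 0 (medians 0.38 and 0.37), none of which passed the test. Their part in the members' median was not tested. The smallest p was that of Rps27a (-0.40 ± 0.16), and those among members with higher values were of Rps4l (0.33 ± 0.19) and Rps3a3 (0.20 ± 0.17). In F/+ hearts 0 of 83 passed, with 0% of all genes passing, 3 had an unadjusted p under 0.05 (3.61%, beside 4.16% of all genes) and DESeq2 called 0. Their median was -0.05 beside 0.02 over all genes, -0.38 without F/+ cGas null replicate 1, and between -0.09 and 0.07 without any other library. Rps6 (-0.77 ± 0.29) and Rpl15 (-0.51 ± 0.23) had the smallest p there, and Rps3a3 (0.29 ± 0.19) and Rps7 (0.27 ± 0.23) among members with higher values. The cGas null F/+ libraries are all male, so this comparison leans on the sex term of the fit.

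The ratio of Rpl3l to Rpl3 counts within a library needs no scaling between libraries. Only 4.3% of the 50-base coding windows of Rpl3 are unique to it, against 100% of those of Rpl3l. Cardiomyocyte markers fell and macrophage markers rose at 2 weeks in NEBNext. The part of shared reads and of a shift in cell types in this ratio was not tested. At 2 weeks the mean log2 ratio was 2.54 ± 0.92 in F/F (SD, n = 5) and 4.67 ± 0.70 in +/+ hearts (n = 7), a difference of -2.13. In F/F it was 4.16, 1.89, 2.30, 2.20 and 2.17, and in +/+ hearts it ran from 4.00 to 5.83 with a median of 4.57. Replicate 1 of F/F, at 4.16, lay within the +/+ range and the other 4 below it. The exact two-sided permutation test gave p = 0.00379, adjusted over 7 comparisons 0.0265. Without any 1 of F/F replicates 2, 3, 4 or 5 the difference was between -2.07 and -1.97, with an adjusted exact permutation p of 0.0636. Within pool KIUC033 it was -1.30 and within KIUC035 -3.32 (adjusted exact permutation p 0.333 and 0.233). In KIUC035 the F/F libraries (2.17 to 2.30) all lay below the +/+ libraries (5.25 and 5.83). Groups of 3 and 2 libraries allow no exact permutation p under 0.1, so the test could not pass there. At 1 week the ratio was 5.04 ± 0.69 in F/F (n = 4) and 5.33 ± 0.62 in +/+ hearts (n = 5), with an exact permutation p of 0.492. At 11 days it was 3.42 ± 0.28 in F/F (n = 2) and 3.40 ± 0.53 in +/+ hearts (n = 3), with an exact permutation p of 1.0, in a design whose smallest p is 0.1.

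In QuantSeq, where counts are tags, hearts with cGas had a mean log2 ratio of -0.88 ± 0.69 where they were F/F and of -0.06 ± 0.42 where they were F/+ (SD, n = 6 each), or 0.543 and 0.961 tags of Rpl3l per Rpl3 tag. The difference of -0.82 had an exact permutation p of 0.0281, adjusted 0.0667, and without F/+ replicate 4 it was -0.97 with an adjusted exact permutation p of 0.0152. Without cGas the ratio was -0.79 ± 0.36 in F/F and 0.35 ± 0.50 in F/+ hearts (n = 4 each), or 0.577 and 1.28 tags per tag. The difference of -1.14 had an exact permutation p of 0.0286, the smallest that 4 against 4 libraries allow, adjusted 0.0667. The 4 F/+ libraries were all male and the F/F ones 2 female and 2 male. The ratio tests take no account of sex, so genotype and sex are partly mixed here. The 4 F/F libraries without cGas (-1.30 to -0.45) lay below the 4 F/+ libraries (-0.28 to 0.91), whereas the groups with cGas overlapped. Between cGas null and cGas +/+ hearts the ratio differed by 0.09 in F/F (exact permutation p 0.819) and by 0.41 in F/+ hearts (exact permutation p 0.214). Near the end of the transcript, where tags lie, 29.4% of windows were unique in Rpl3 and 100% in Rpl3l. The part of shared reads in these QuantSeq ratios was not tested.

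**Figure D5:**
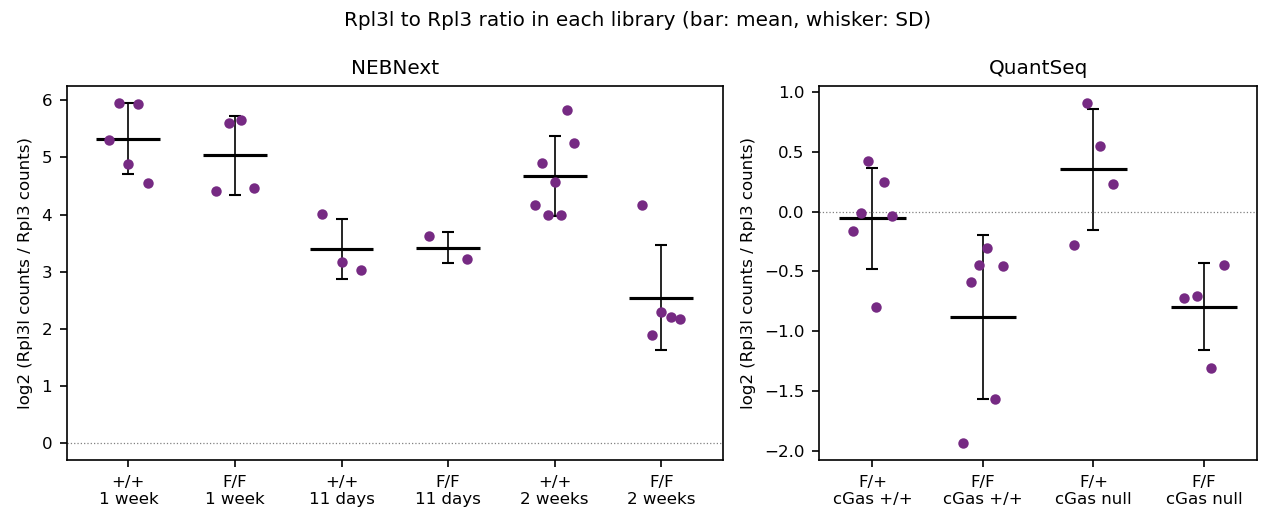
The log2 ratio of Rpl3l to Rpl3 counts in each library (y axis, with 0.5 added to each count) by group, with mean and SD. At 2 weeks 4 of 5 F/F hearts (1.89 to 2.30) lie below all +/+ hearts (4.00 to 5.83), and the 4 F/F cGas null hearts lie below the 4 F/+ cGas null hearts.

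The other 4 paralog members, Rpl22l1, Rps27l, Rpl7l1 and Rps4l, did not pass in any comparison tested. Rpl22l1, a paralog of the RNA-binding large subunit protein Rpl22, was at 12.4 ± 2.36 normalized CPM in F/F (SD, n = 5) and 10.8 ± 2.68 in +/+ hearts (n = 7) at 2 weeks (log2 fold change 0.34 ± 0.23), and Rpl22 at 188 ± 27.1 and 183 ± 23.5 (0.11 ± 0.13). In QuantSeq with cGas Rpl22l1 was at 78.7 ± 11.9 in F/F and 64.4 ± 11.0 in F/+ hearts (n = 6 each; 0.36 ± 0.15, edgeR adjusted p 0.178). Rps27l was at 62.0 ± 7.11 in F/F and 51.8 ± 9.78 in +/+ hearts at 2 weeks (0.34 ± 0.18), and at 173 ± 31.5 and 148 ± 12.3 in F/F and F/+ QuantSeq hearts with cGas (0.24 ± 0.16). Its parent Rps27 was a member in QuantSeq only, with 560 ± 105 and 575 ± 60.8 normalized CPM in the same hearts (0.01 ± 0.18). Rpl7l1 was at 54.7 ± 4.83 and 51.0 ± 5.20 at 2 weeks (0.06 ± 0.11), and Rpl7 at 175 ± 23.7 and 158 ± 27.2 (0.23 ± 0.15). Rps4l, a pseudogene in GENCODE vM21, was at 23.5 ± 7.05 and 26.9 ± 11.2 (-0.34 ± 0.32), and Rps4x, the X-linked parent, at 91.7 ± 13.99 and 84.8 ± 16.1 (0.27 ± 0.13). Rpl39l and Rpl10l, known from testis, were below the limit in both kits, at 0.236 and 0.00202 CPM in NEBNext; their parents had log2 fold changes of 0.37 ± 0.21 (Rpl39) and 0.94 ± 0.36 (Rpl10, 1.81 CPM) at 2 weeks and did not pass.

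Genes that make ribosomes or work with them were taken from companion lists. Of 68 ribosome biogenesis genes 20 rose and 0 fell at 2 weeks, at a median log2 fold change of 0.20 (all genes 0.04, with 16.2% of all genes higher and 13.0% lower), beside 0 in each direction at 1 week (5 with an unadjusted p under 0.05 in edgeR). Those with the smallest p were Rrp12, which helps to export and process pre-ribosomal RNA (1.14 ± 0.21), the nucleolar GTPase Gnl3 (0.81 ± 0.15) and the nucleolar helicase Ddx21 (0.68 ± 0.15). In QuantSeq with cGas 1 of 68 rose, Rrp12 (0.66 ± 0.18), and without cGas 0 passed (4 with an unadjusted p under 0.05). Of 37 initiation genes 4 rose and 1 fell at 2 weeks, both smaller shares than over all genes, and the median over the 37 was 0.01. The risers with the smallest p were Eif1a (1.31 ± 0.17), the helicase Eif4a1 (0.59 ± 0.12) and Eif5 (0.70 ± 0.15), and the gene that fell was Eif1 (-0.40 ± 0.15). Of 10 genes in the elongation list 2 rose and 1 fell. Eef1a1, which brings aminoacyl-tRNA to the ribosome in most cells, rose by 0.68 ± 0.17. Eef1e1, listed by its name though not itself an elongation factor, rose by 0.45 ± 0.15. Eef1a2, the form of adult muscle and nerve, changed by -0.90 ± 0.20. In QuantSeq with cGas Eef1a1 was at 0.07 ± 0.19 and Eef1a2 at -0.27 ± 0.22, and neither passed. Of 21 growth regulators tested 1 rose, the transcription factor Myc (2.18 ± 0.34), and 5 fell, led by Mycn (-1.46 ± 0.32), the stress-induced Sesn1 (-0.71 ± 0.18) and Maf1, a repressor of RNA polymerase III (-0.48 ± 0.14). Eif4ebp1, the mTOR target that holds back initiation, was at 0.18 ± 0.15, and in QuantSeq with cGas Myc was at 1.30 ± 0.48 and did not pass. The shift of marker genes at 2 weeks given above moved with these lists too, and its part in them was not tested.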

How the data were processed

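The authors deposited raw read counts per gene and a second table that, per the file headers, is TPM: its 26 NEBNext columns are TPM, and its 20 deposited QuantSeq columns equalled CPM of the counts. The submitters' processing notes name STAR 2.7.9 and build mm39; a counting tool and an annotation were not given in the sources used here. No column was without a sample (0). Libraries were grouped by the labelled genotype and time.

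The members, lists and tests were chosen with earlier results of these data known. Counts were tested with edgeR 4.0.16 in R 4.3.3 (TMM, filterByExpr, quasi-likelihood test, all libraries of a kit, sex and 2-week pool as covariates), adjusted over all genes by Benjamini-Hochberg at 0.05, with DESeq2 1.42.0 and other settings as alternatives, and the edgeR script was tested on simulated data. SE is the absolute log2 fold change over the root of F. Normalized CPM use TMM-scaled totals. Ratios were tested by exact permutation. Named genes are the paralogs and their parents, up to 6 called members per direction and comparison (otherwise the 2 of smallest p), the 3 highest and lowest members, and up to 3 called genes per companion list and direction with Eef1a1, Eef1a2, Myc and Eif4ebp1. Promoters are RefSeq's (GRCm38.p6). Some named results are not reported here.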

Additional observations from a re-analysis of the deposited data

Results flagged for a closer look

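In 152 sets, each a gene, sum or ratio in 1 group of 4 to 7 libraries, the highest and lowest library were examined. The question was whether the gap to the next library was large for the set's range. The sets share libraries, so they are not independent. A library stood out in 14 sets, where chance flags about 1 in 20. Of these, 5 were the same F/+ cGas null library (replicate 1): summed members at 7.75% of nuclear counts, and normalized CPM of 412 for Rpl27, 1022 for Rps26, 826 for Rps27 and 36.9 for Rpl7l1. A further 3 were replicate 1 of the F/F hearts with cGas, with Rpl10 at 133, Rpl27 at 328 and Rps26 at 898.5. In F/F hearts of 2 weeks replicate 1 stood out in the log2 ratio of Rpl3l to Rpl3 (4.16) and in Rpl27 (3.20). The others were summed members of 6.96% in replicate 2 of F/+ hearts with cGas, Rpl34 at 191 in replicate 5 and Rpl3l at 391 in replicate 1 of the +/+ hearts of 1 week, and Rpl34 at 98.3 in replicate 3 of the +/+ hearts of 2 weeks. The F/F effect differed between 2 weeks and 1 week, by the test of that difference, for Rpl3l (-0.93), Rps26 (0.89) and Rpl14 (0.55, log2).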

How the results depend on the processing

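No paired analysis was possible because the labels give no replicate numbers, and those used here only name libraries. Of the values that changed, the members higher at 2 weeks numbered 28 with total counts, 12 with the groups compared alone, and 0 within pool KIUC033, where 0 were lower; leaving out single libraries gave 0 to 9 higher. For 2 weeks minus 1 week, 6 were higher with DESeq2, 6 with total counts and 5 without the low-count filter, and 0 to 11 higher and 0 to 1 lower without single libraries. Without the filter 1 member was higher at 1 week and 2 at 11 days, and without single libraries 0 to 1 were lower at 1 week and 0 to 4 higher at 11 days. In QuantSeq with cGas 1 was lower with DESeq2 and without the filter, and 0 to 1 without single libraries. The F/F minus +/+ difference in the log2 ratio of Rpl3l to Rpl3 at 2 weeks was -1.30 within KIUC033 and -3.32 within KIUC035. It was -2.54 to -1.94 without single libraries. In QuantSeq with cGas the F/F minus F/+ difference in this ratio was -0.97 to -0.61 without single libraries. The causes were not tested. No named log2 fold change or ratio that passed its test changed direction under these settings, whereas the members' median between F/F and F/+ hearts without cGas did. With total counts the median over all genes moved up with it, to 0.16, and the members' median stayed below. Members with few unique coding windows share sequence with other genes, which limits what their NEBNext levels can show. Some share the end of the transcript too: 0.0% of the windows there were unique in Rps27, Rpl10, Rpl36a, Rpl5, Rpl9 and Rps12. For these genes the limit holds for QuantSeq levels as well. Others share part of that end: 5.0% of the windows there were unique in Rpl35 and 29.4% in Rpl3, against 100% in Rpl3l.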
